A study of Danio rerio with 12 samples.

Results

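The genes described here, read in whole zebrafish eyes after optic nerve crush, mainly encode the contractile apparatus of muscle, with some non-muscle proteins. They were chosen by symbol: every probe set annotated as atp2a1 or pgam2, or with a symbol that begins with tnnc, tnni, tnnt, myl, myh, myoz, mybp, tpm, actn, acta1, neb or ttn. This gave 56 of the 15617 probe sets on the array. Of these, 52 carried 1 symbol and stood for 43 genes of the 8793 with a probe set of their own, and 4 carried the symbols of several genes.

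The fish were wild-type adult males. In each the left optic nerve was crushed with forceps (ONX), while the right eye was only lifted from its socket and put back, its nerve intact (SHAM). Eyes were taken 4, 12 and 21 days after surgery, with 2 pools of 5 eyes in each of the 6 groups, and RNA of each pool was read on 1 Affymetrix zebrafish array, 12 arrays in all. The question was how expression in the eye changes with time after the injury. The SHAM eyes were thus handled without a crush. The part of the handling in the differences of the muscle genes was not tested. The protocol names retina, lens, vitreous and the anterior and posterior segments as the collected tissue and does not mention the muscles that move the eye.

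Striated muscle contracts where thick filaments of myosin slide past thin filaments of actin, each thin filament being anchored at a Z-disc and covered by tropomyosin and the troponins. Calcium released from the sarcoplasmic reticulum binds troponin C and opens the thin filament, and a calcium pump, the product of atp2a1 in fast fibres, returns it to the store. Fish eyes are turned by muscles attached to the outside of the globe, and fast and slow fibres use different members of the same protein families. Several families in the rule also have members outside striated muscle: myl6, myl9b, myl12.1, myh9a, myh10, actn1 and the tpm4 tropomyosins belong to smooth muscle or to the cytoskeleton of other cells.

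The measure used is log2(signal + 16), from the deposited signals, called log2 signal below, and differences are ONX minus SHAM with the moderated standard error of limma. A probe set entered the tests where its mean over the 12 arrays was in the upper 60% (a signal of 135 or more), and it was called where the p-value, adjusted by Benjamini and Hochberg over all 9301 tested probe sets, was under 0.05. Each group holds 2 pools, and this number limits the precision. In RNA from a whole eye, fewer muscle cells and less RNA per muscle cell cannot be told apart.

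Of the 56 probe sets, 38 were tested. The 31 for skeletal filament proteins gave 9 tested of 11 on the thick filament, 10 of 13 on the thin filament and 4 of 7 for the Z-disc and titin, 23 in all. Both probe sets of the muscle enzymes were tested (atp2a1 and pgam2), as were 1 of 7 of the slow or cardiac proteins (myh7), 11 of 14 of the smooth muscle and non-muscle proteins and 1 of 2 for genes that only share the letters of a symbol. The latter are mylipa, a ubiquitin ligase, and the methyltransferase genes tpmt.1 and tpmt.2.

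The list of skeletal muscle markers, which includes atp2a1, myoz1b and mybphb, had 9 of its 16 probe sets among the tested. Markers of the heart did not reach that level by their mean, and 0 of 8 probe sets were tested. The cardiac regulatory light chain myl7 lay between 4.28 and 5.32 on the 12 arrays and cmlc1 between 4.24 and 6.01. The cardiac troponin T gene tnnt2a lay higher, between 6.02 and 7.92, and exceeded the limit for testing on 2 arrays. The myosin heavy chain gene myh7, of the ventricle and of slow fibres, is not on that list and was tested. The smooth muscle list had 3 probe sets (acta2, tagln and smtnb), all of them tested. The filament genes called skeletal here carry that name by their assigned role. The skeletal list shares atp2a1, myoz1b and mybphb with the genes described here, and its myod1, myog and myf6 were too dim to be tested. Nothing on the lists separates muscles of the eye from other skeletal muscle.

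The arrays were scaled alike, and 1 of them stood apart. The array of ONX day 4 pool 1 had a median of 12.7 over 22 probe sets of an oocyte list, against 4.67 to 5.74 on each of the other 11, although all fish are labelled male. Counts of calls at day 4 are given with and without it.

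Several genes of fast fibres were read far above the limit for testing. On the 12 arrays mylpfa, the fast regulatory myosin light chain, read between 11.39 and 13.76 on one probe set and between 11.00 and 13.46 on the other. A probe set shared by 6 fast myosin heavy chain genes (myha, myhc4, myhz1.1, myhz1.2, myhz1.3 and myhz2) read between 11.34 and 13.41. These 6 genes are neighbours in the RefSeq assembly GRCz12tu, and the array does not separate them. The fast troponin T gene tnnt3b lay between 11.23 and 13.16 and the striated tropomyosin tpm1 between 10.43 and 12.73. Signals of different probe sets are not compared with each other, since each binds with its own strength.

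At day 4 after the crush 4 muscle genes were lower in ONX eyes and 1 cytoskeletal gene was higher. The genes that fell were myoz1b, mybphb, atp2a1 and pgam2, and the gene that rose was myl6. Over all tested probe sets 11.7% were called lower and 5.29% higher at this day. The 4 of 38 tested here are 10.5% and the 1 of 38 is 2.63%, so that neither share exceeds that of the array as a whole. The other 33 tested probe sets did not pass, among them 21 of the 23 of the skeletal filaments.

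The Z-disc gene myoz1b encodes myozenin, which binds alpha-actinin. Its log2 signal was 7.98 and 8.11 in the SHAM pools of day 4 and 5.11 and 6.45 in the ONX pools. Both ONX pools lay well below every other array, where the lowest value was 7.35. The difference was −2.27 ± 0.46, a 4.82-fold lower signal (limma, adjusted p = 0.0176).

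The thick filament gene mybphb encodes a myosin-binding protein of the H type. It read 10.25 and 10.19 in the SHAM pools of day 4 and 7.22 and 9.39 in the ONX pools. The fall was carried by pool 1 more than by pool 2, whose value was close to the 9.42 of an ONX pool of day 21. The difference was −1.91 ± 0.57, or 3.77-fold (limma, adjusted p = 0.0449).

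For the calcium pump gene atp2a1 the SHAM pools of day 4 gave 12.27 and 12.01 and the ONX pools 9.30 and 11.27. Again the groups did not overlap and pool 1 was much the lower. The difference was −1.86 ± 0.55, or 3.62-fold (limma, adjusted p = 0.0443). The muscle phosphoglycerate mutase gene pgam2, an enzyme of glycolysis, read 10.32 and 10.24 in SHAM and 8.26 and 9.35 in ONX eyes. Here the difference was −1.48 ± 0.37, or 2.79-fold (limma, adjusted p = 0.0278).

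The essential light chain of smooth and non-muscle myosin, myl6, moved the other way. It read 9.74 and 9.95 in the SHAM pools of day 4 and 10.72 and 11.07 in the ONX pools. The difference of 1.05 ± 0.31, or 2.07-fold, passed the test (limma, adjusted p = 0.0427), and both ONX pools lay above every SHAM value of day 4.

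The calls depended on single pools, also on pools of other days. Leaving out a pool of day 12 or 21 keeps the day 4 differences and changes the estimated spread. With 1 SHAM pool of day 12 left out, whichever it was, atp2a1 and mybphb did not pass. With 1 pool of day 21 left out, whichever it was, atp2a1, mybphb and myl6 did not pass. Without ONX day 4 pool 1, a fit in which the lone ONX pool is taken to vary like the other groups, the differences were −1.60 for myoz1b, −0.83 for mybphb, −0.87 for atp2a1, −0.94 for pgam2 and 1.22 for myl6. All kept their direction and none passed. In that fit 0 of the 9301 probe sets passed, with 2628 at an unadjusted p under 0.05, 8 of them among the genes described here. Leaving out ONX day 4 pool 2 also leaves a lone ONX pool, so only differences are given for that fit. They were −2.94 for myoz1b, −2.996 for mybphb, −2.84 for atp2a1, −2.02 for pgam2 and 0.88 for myl6. In the same fit they were −0.77 and −0.82 on both probe sets of mylka, −1.27 for tnni2a.2 and 1.17 for mylipa. With limma none passed without SHAM day 4 pool 1 or without SHAM day 4 pool 2, where 2034 and 2300 of 9301 had an unadjusted p under 0.05. Scaling also changed the calls. On signals centred on the array medians the 4 lower genes passed and myl6 (limma, adjusted p = 0.0703) did not. Of all 9301 probe sets 1499 were then lower and 319 higher. On signals scaled to the hybridisation controls 1 was lower (myoz1b) and 5 were higher (myl6, actn1, tpm3 and both tested probe sets of myl12.1). Of all 9301 probe sets 447 were lower and 1937 higher on this scaling, and the median over all tested probe sets moved from −0.089 to 0.37. On signals scaled to the poly-A controls no probe set of the array passed with limma, with 2201 at an unadjusted p under 0.05.

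**Figure D1:**
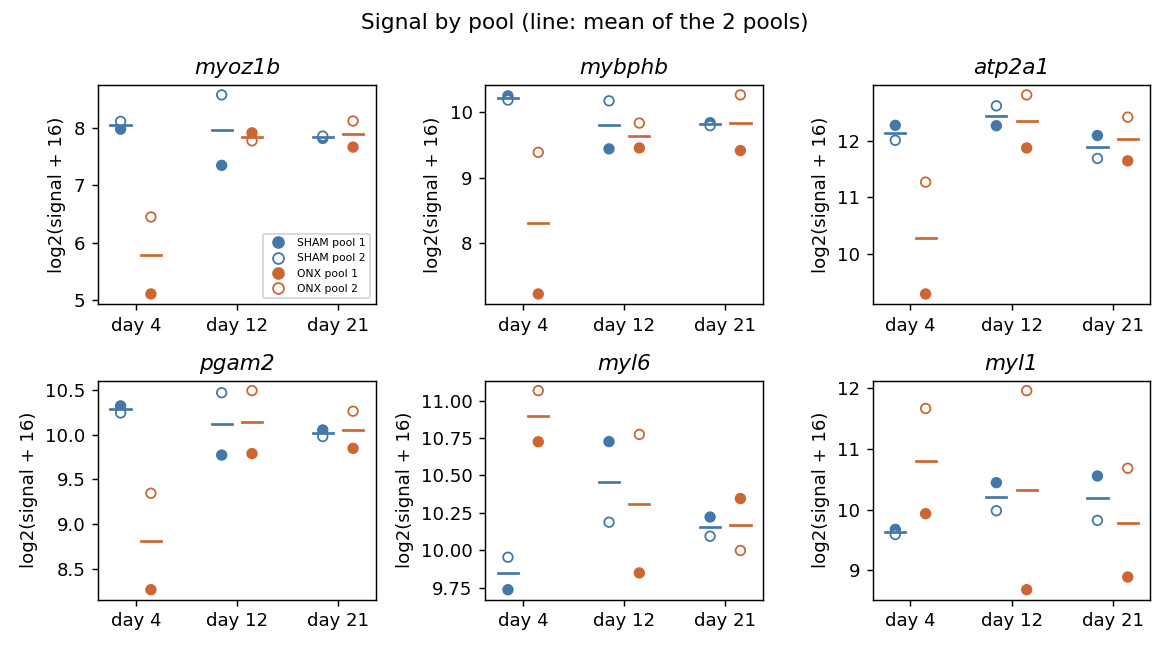
Log2(signal + 16) of myoz1b, mybphb, atp2a1, pgam2, myl6 and, as an example of a gene that was not called, myl1, by day (x axis); filled points are pool 1, open points pool 2, blue SHAM, orange ONX, and short lines the means of 2 pools. For the first 4 genes both ONX pools of day 4 lie below both SHAM pools, pool 1 the farthest, and at days 12 and 21 the groups overlap or lie close together; for myl6 both ONX pools of day 4 lie above.

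The rest of the thick filament gave positive and negative differences, none of which passed. The myosin light chain myl13 read 8.67 and 8.46 in SHAM and 9.92 and 11.13 in ONX eyes at day 4, a difference of 1.96 ± 1.01 (limma, adjusted p = 0.183). For the regulatory light chain myl10 the values were 9.01 and 8.04 against 9.28 and 10.51, and for the essential light chain myl1 9.68 and 9.59 against 9.93 and 11.67. In these 3 light chain genes both ONX pools exceeded both SHAM pools, but ONX pool 2 was far above ONX pool 1. The remaining thick filament probe sets overlapped between groups, with differences of −0.25 for the shared fast myosin heavy chains, 0.08 for mybpha, 0.13 and 0.33 for the 2 probe sets of mylpfa and 0.22 for mylz3, another essential light chain.

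Among the tested thin filament probe sets the largest difference was that of acta1a, a skeletal actin. It read 6.28 and 6.39 in the SHAM pools of day 4 and 9.02 and 10.40 in the ONX pools. This difference of 3.38 ± 1.39 did not pass (limma, adjusted p = 0.108), since the gene ranged from 6.11 to 11.24 over the 12 arrays and its pools differed widely at days 12 and 21. Without ONX day 12 pool 1 or pool 2 both acta1a (adjusted p = 0.0336 and 0.0335) and myl13 (0.0468 and 0.0465) passed at day 4, because leaving out either pool narrows the estimated spread.

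The fast troponin C gene tnnc2.2, the calcium sensor of the thin filament, read 10.21 and 9.78 in SHAM and 10.50 and 11.92 in ONX eyes. The fast troponin I gene tnni2b.1 read 9.28 and 9.45 against 10.10 and 10.90. Both ONX pools were the higher in each, and neither difference (1.22 ± 0.86 and 1.13 ± 0.91) passed. The opposite holds for tnni2a.2, another fast troponin I, with 9.20 and 9.22 in SHAM against 7.94 and 9.12 in ONX eyes and a difference of −0.68 ± 0.37. Its neighbours in the same assembly, tnni2a.3 and tnni2a.4, differed by 0.20 ± 0.55 (tnni2a.3) and by −0.01 ± 0.70 on the probe set that tnni2a.4 shares with tnni2a.2. Tropomyosins tpma and tpm1 differed by 0.66 and 0.15, nebulin (neb, which runs along the thin filament) by −0.11 and tnnt3b by −0.11.

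At the Z-disc, actn3b, a striated alpha-actinin that cross-links actin there, differed by −0.06 ± 0.66. Titin, the elastic protein that spans from Z-disc to the middle of the sarcomere, is represented by 4 probe sets of ttn.2. Those tested differed by −0.13 and −0.47 and the others, between 4.68 and 5.86 and between 4.08 and 4.31 on the 12 arrays, were not. The 4 Z-disc and titin probe sets tested were thus all below 0, and myoz1b alone passed.

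The tropomyosin tpm3, of slow muscle and non-muscle cells, is counted below with the non-muscle proteins. Among the genes given the slow or cardiac role, myh7 alone was above the limit for testing, a myosin heavy chain of the ventricle and of slow fibres. It read 9.15 and 8.77 in SHAM and 9.58 and 10.63 in ONX eyes of day 4, a difference of 1.14 ± 0.85 that did not pass. Among the smooth muscle and non-muscle proteins myl6 alone passed, and the non-muscle alpha-actinin actn1 (0.73 ± 0.32, adjusted p = 0.129), tpm3 (0.49 ± 0.27) and both tested probe sets of the regulatory light chain myl12.1 (0.52 and 0.28) had both ONX pools above both SHAM pools without passing. The myosin light chain kinase mylka differed by −0.55 and −0.47 on its 2 probe sets, tpm4b by −0.25, tpm4a by 0.28, myl9b by 0.23 and myh10, a non-muscle myosin heavy chain, by −0.05. For mylipa the difference was 0.28.

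Counted over the 38 tested probe sets, both ONX pools of day 4 exceeded both SHAM pools in 12 (31.6%) and fell short of both in 7 (18.4%). Over all tested probe sets these shares were 24.1% and 36.1%. The median difference was 0.17 over the 38, 0.13 over the 23 skeletal filament probe sets and −0.089 over all tested. The first 2 medians changed sign with the pools: the filament median was 0.80 without ONX day 4 pool 1 and −0.63 without ONX day 4 pool 2, and it was −0.029 on signals centred on the array medians.

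**Figure D2:**
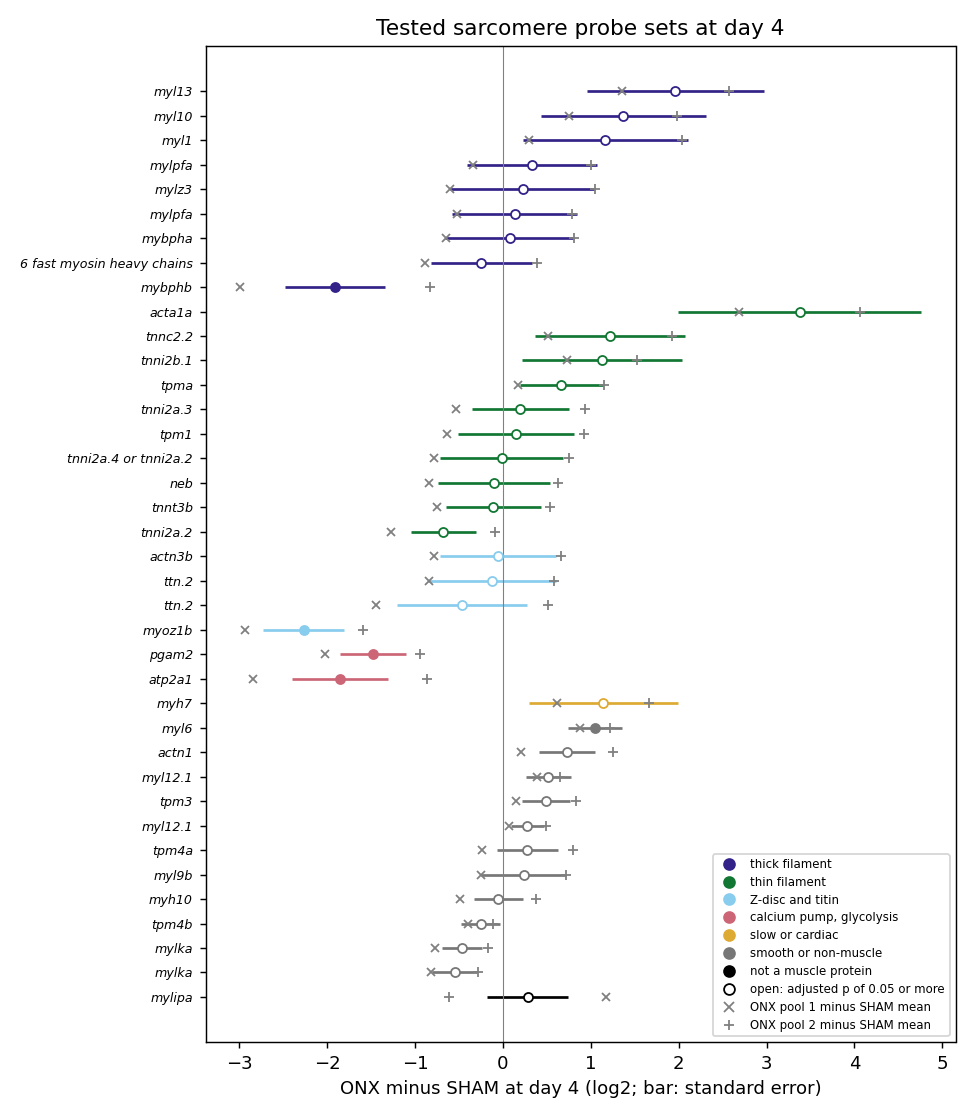
ONX minus SHAM at day 4 (log2, x axis) for the 38 tested probe sets, coloured by role, with bars of 1 standard error; filled points passed the test, crosses and plus signs show ONX pool 1 and ONX pool 2 each minus the mean of the SHAM pools. The pool 1 crosses lie left of the pool 2 plus signs for every filament gene, and only myoz1b, mybphb, atp2a1, pgam2 and myl6 are filled.

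By the median of the filament genes, the ONX pools of day 4 lay on opposite sides of the SHAM eyes. Not every gene did so: acta1a and myl13, for example, were above the SHAM mean in both pools, and tnni2a.2 was below in both. Against the SHAM mean, the filament median was −0.63 in pool 1, with 16 of 23 probe sets below 0, and 0.80 in pool 2, with 3 of 23 below 0. For all tested probe sets the medians were −0.22 and −0.041, with 5547 and 4910 of 9301 below 0. On signals scaled to the poly-A controls the filament median was 0.11 in pool 1 and 0.58 in pool 2, above the SHAM mean in both. The median ONX minus SHAM difference of all tested probe sets was 0.15 on that scaling. The 4 genes called lower, which were picked by these same arrays, lay at −2.89 (pool 1) and −0.90 (pool 2) by their median.

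Lists of other tissues also differed between ONX and SHAM eyes at day 4. The rod and cone list, whose genes serve light detection in the retina, had medians of −1.23 in pool 1 (29 of 29 below the SHAM mean) and −0.89 in pool 2 (28 of 29), with 25 of 29 probe sets called lower at day 4. The red blood cell list had medians of −1.27 and −0.91, with 7 of 7 below the SHAM mean in both pools and 2 called lower, and the lens list −1.41 and −0.67, with 4 of 4 below and 2 called lower. The fibroblast list of collagens and other matrix genes was higher by 1.38 and 2.49 (11 of 12 and 12 of 12 above), with 1 of 12 called. The immune list was higher by 0.67 and 2.07 in the same pools, with 5 of 14 and 2 of 14 below the SHAM mean and 4 of 14 called higher. The shares called over all tested probe sets at this day were 11.7% lower and 5.29% higher. Medians on opposite sides of the SHAM mean, as in the filament genes, were also found in other lists. The cartilage list lay at −0.75 in pool 1 and 0.37 in pool 2 (9 and 2 of 11 below). The smooth muscle list lay at −0.55 and 0.28, and the surface epithelium list at −0.47 and 0.07. Of the smooth muscle list, tagln was called higher and smtnb lower. The difference between the 3′ and 5′ probe sets of GAPDH, a sign of RNA quality, was 0.82 and 1.06 in the ONX pools and 0.79 and 0.76 in the SHAM pools of day 4. The same difference for muscle actin was 2.32 and 2.06 in the ONX pools and 1.64 and 0.84 in the SHAM pools, with no overlap at that day. In the SHAM pools of days 12 and 21 it lay between 1.47 and 2.70, a range that holds both ONX values of day 4. The part of these tissues and of RNA quality in the differences of the muscle genes was not tested.

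At day 12 no gene of the set passed the test. With limma 0 of 38 passed, as did 0% of all tested probe sets in either direction. At an unadjusted p under 0.05 the counts were 0 of 38 and 27 of 9301. Both ONX pools lay above both SHAM pools in 0 of the 38 and below in 1 (tnni2a.2), against 7.29% and 7.48% of all tested. The smallest p-values were those of tnni2a.3, actn1 and tnni2a.2.

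For tnni2a.3 the SHAM pools of day 12 read 9.23 and 8.83 and the ONX pools 9.01 and 10.40, a difference of 0.68 ± 0.55. For actn1 they read 8.49 and 8.58 against 8.53 and 9.14 (0.30 ± 0.32), and for tnni2a.2 8.95 and 8.65 against 8.35 and 8.56 (−0.35 ± 0.37). The 4 genes that had fallen at day 4 had values at or near those of SHAM: myoz1b 7.35 and 8.57 in SHAM against 7.91 and 7.77 in ONX eyes, mybphb 9.44 and 10.18 against 9.46 and 9.84. The same holds for atp2a1, with 12.27 and 12.62 against 11.87 and 12.81, and for pgam2, with 9.77 and 10.47 against 9.79 and 10.49. In each the ONX and SHAM pools overlapped.

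At day 21 none passed either. With limma 0 of 38 passed and 0% of all tested in either direction, and at an unadjusted p under 0.05 there were 0 of 38 and 12 of 9301. Both ONX pools lay above both SHAM pools in 0 of the 38 and below in 1 (myl12.1), against 12.1% and 11.6% of all tested. The smallest p-values belonged to tnni2b.1, tnnt3b and myl10.

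The fast troponin I gene tnni2b.1 read 10.39 and 9.74 in SHAM and 8.16 and 10.28 in ONX eyes of day 21, a difference of −0.85 ± 0.91. For tnnt3b the values were 12.41 and 12.14 against 11.27 and 12.41 (−0.43 ± 0.54), and for myl10 9.41 and 9.09 against 7.59 and 9.45 (−0.73 ± 0.94). In all 3 the lower mean came from ONX pool 1 alone. Of the 23 filament probe sets 19 had a difference below 0, with a median of −0.29 that became 0.42 without ONX day 21 pool 1. The differences of the earlier fallers were 0.06 for myoz1b, 0.02 for mybphb, 0.14 for atp2a1 and 0.04 for pgam2.

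Averaged over the 3 days 0 of 38 passed (0% of all tested in either direction, limma), with 1 of 38 and 1390 of 9301 at an unadjusted p under 0.05. The smallest p-values were those of myoz1b (−0.78 ± 0.27, adjusted p = 0.283), pgam2 (−0.47 ± 0.22, 0.338) and mybphb (−0.68 ± 0.33, 0.354). An F-test of the difference in the ONX effect between days (limma) called 0 of 38 and 0% of all tested, with 3 of 38 and 1308 of 9301 at an unadjusted p under 0.05. Those 3 were myoz1b (adjusted p = 0.261), pgam2 (adjusted p = 0.291) and myl6 (adjusted p = 0.331). A call at day 4 beside none at the later days is therefore not shown to be a difference between days. In both comparisons the count of 0 changed where ONX day 4 pool 2 was left out. That fit holds 1 ONX pool of day 4 and no spread within that group, so nothing is read from it.

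Among SHAM eyes none of these genes passed a test between days. The limma F-test called 0 of 38 and 0% of all tested, with 0 of 38 and 172 of 9301 at an unadjusted p under 0.05. The smallest p was that of myl6, which read 9.74 and 9.95 at day 4, 10.73 and 10.19 at day 12 and 10.22 and 10.09 at day 21. It was followed by actn1, at 8.51 and 8.63, then 8.49 and 8.58, then 9.16 and 8.85, and by acta1a, at 6.28 and 6.39, then 8.80 and 7.09, then 9.24 and 7.72.

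The filament genes differed widely between the pools of 1 group. Among ONX eyes the filament genes were higher in pool 2 than in pool 1 on every day, by a median of 1.41 (2.66-fold) at day 4, 2.08 (4.23-fold) at day 12 and 1.26 (2.395-fold) at day 21. In SHAM eyes the medians of pool 2 minus pool 1 were small and of the other sign, at −0.22, −0.40 and −0.63. On signals scaled to the poly-A controls the ONX values were 0.49, 2.25 and 1.03, and on those scaled to the hybridisation controls 1.29, 2.37 and 1.28.

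By gene, 22 of the 23 filament probe sets (95.7%) had ONX pool 2 above pool 1 on all 3 days, against 19.2% of all tested probe sets. The exception was myoz1b, which read 7.91 and 7.77 in the ONX pools of day 12. In 14 of the 23 the SHAM pools also ran the other way on all 3 days, as they did in 366 of all 9301. By role the count was 9 of 9 on the thick filament, 10 of 10 on the thin filament and 3 of 4 for the Z-disc and titin. Both atp2a1 and pgam2, and myh7, also had ONX pool 2 above pool 1 throughout, whereas 4 of 11 smooth muscle and non-muscle probe sets did. All these counts, by gene and by role, come from the same 1 pair of ONX pools per day. The probe sets are therefore not independent observations of a pool order. The labels do not say what pools of the same number have in common.

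At day 12 the gap was widest. The skeletal actin acta1a read 6.41 in ONX pool 1 and 11.24 in ONX pool 2, compared with 8.80 and 7.09 for SHAM. The light chain myl13 read 7.74 and 11.50, against 9.50 and 8.47. The regulatory light chain mylpfa read 11.39 and 13.76, against 12.86 and 12.74. In all 3 the SHAM pools lay between the ONX pools.

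**Figure D3:**
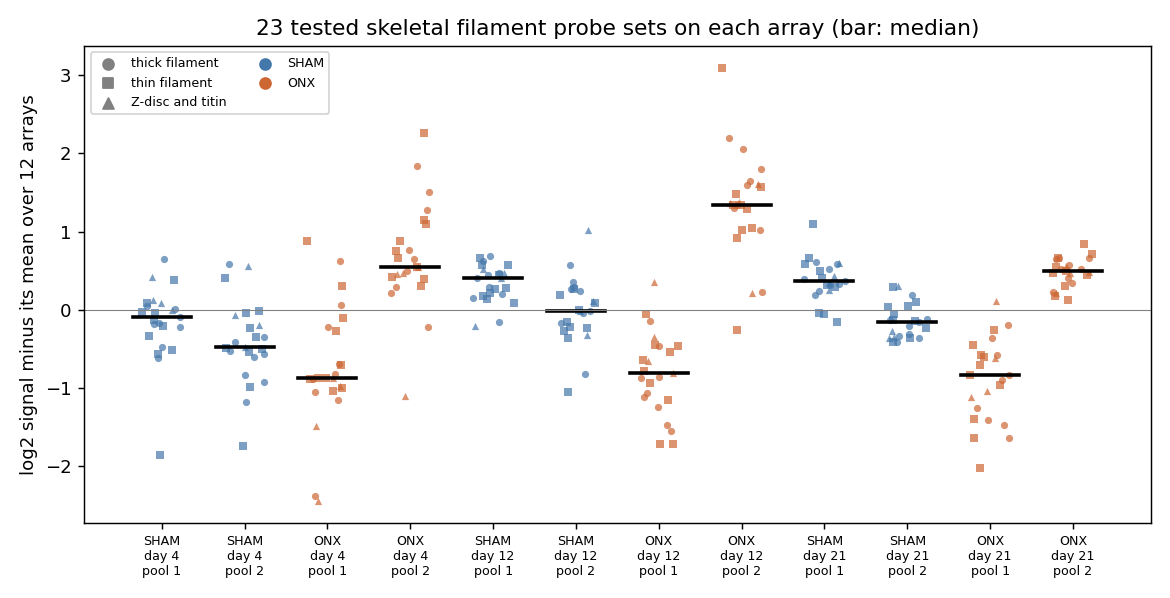
Log2 signal of each of the 23 tested skeletal filament probe sets minus its own mean over the 12 arrays (y axis), for each array (x axis); blue is SHAM, orange ONX, symbols mark the filament part, and black bars are medians. The medians of ONX pool 1 are −0.87, −0.81 and −0.84 at days 4, 12 and 21, those of ONX pool 2 are 0.55, 1.34 and 0.49, and the SHAM medians lie between −0.48 and 0.40.

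The spread between pools of a group had a median SD of 0.904 over the 23 filament probe sets, from 0.436 to 1.79 in acta1a, against 0.271 over all tested probe sets. All 23 exceeded that latter value. The 11 smooth muscle and non-muscle probe sets had a median SD of 0.292, near that of the array as a whole. With SDs of this size a difference must be large to pass.

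Genes of other tissues differed between the same pools. ONX pool 2 was the higher in 6002, 4266 and 4440 of all 9301 tested probe sets at days 4, 12 and 21. Their median of ONX pool 1 minus pool 2 was −0.27, 0.055 and 0.016, so that part of the day 4 gaps was common to the array. The fibroblast list was higher in ONX pool 2 by a median of 1.18, 3.098 and 1.14 at days 4, 12 and 21, in 12 of 12 probe sets each time, and in SHAM eyes pool 2 minus pool 1 was −0.54, −0.63 and −1.16. The cartilage list was higher in ONX pool 2 by 1.104 and 1.47 at days 4 and 12 (11 of 11 each) and split at day 21 (5 of 11 higher). The rod and cone list was higher in ONX pool 2 by 0.32 at day 4 (26 of 29), and at day 12 the difference was −0.54, with 28 of 29 higher in ONX pool 1. The immune list was higher in ONX pool 2 by 1.35, 0.94 and 0.68 at days 4, 12 and 21 (13, 14 and 14 of 14), and the surface epithelium list by 0.43, 0.14 and 0.20 (14, 12 and 13 of 15). Whether these lists and the muscle genes share a source was not tested.

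**Figure D4:**
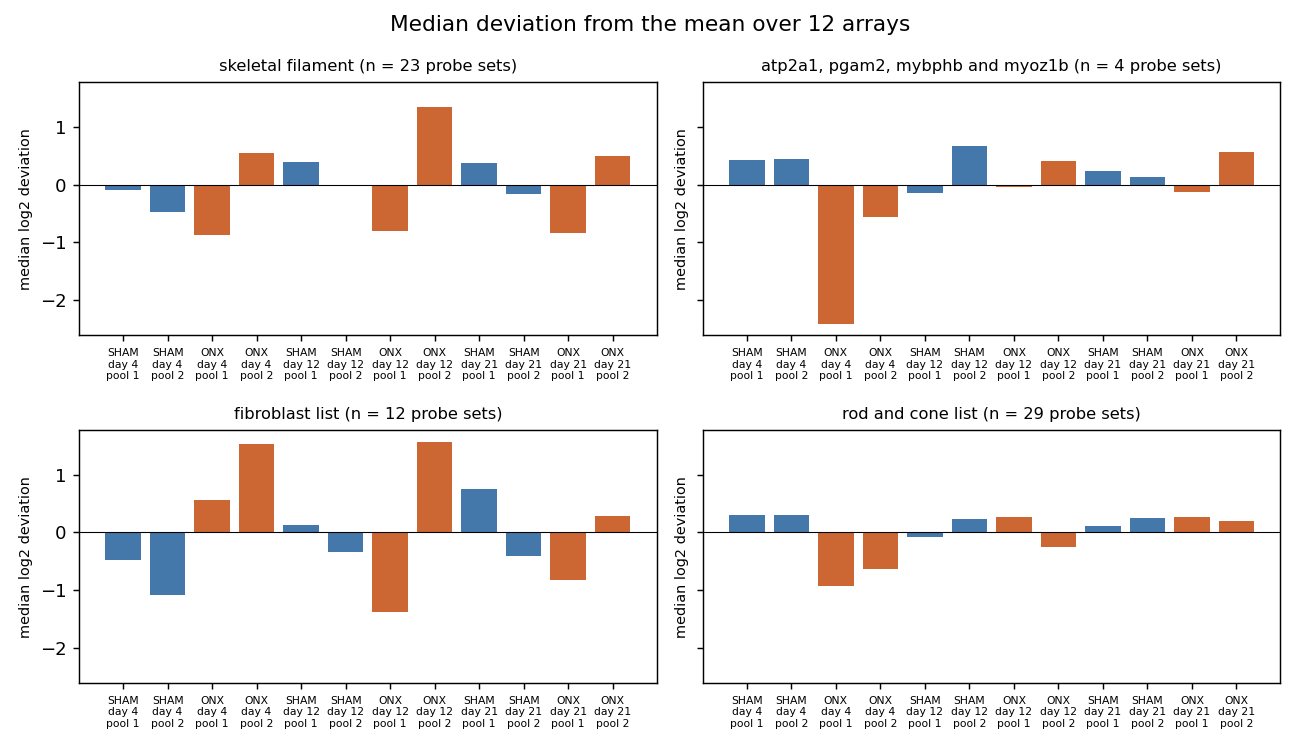
Median deviation from the mean over 12 arrays (log2, y axis; bars start at 0) for the 23 filament probe sets, for atp2a1, pgam2, mybphb and myoz1b, for the fibroblast list and for the rod and cone list, by array (blue SHAM, orange ONX). Filament and fibroblast bars are higher in ONX pool 2 than in ONX pool 1 at each day. The rod and cone list is lowest in the ONX pools of day 4. So are the 4 genes called lower, which were picked by these same arrays.

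Muscle genes outside the rule were read from a list of 129 genes, of which 58 were on the array and 44, with 48 probe sets, were tested. At day 4, 9 of the 48 (18.8%) were lower and none was higher (limma; 15 lower and 3 higher at an unadjusted p under 0.05), against 11.7% and 5.29% of all tested, and their median difference was −0.37. Without ONX day 4 pool 1 that median was 0.13, and without ONX day 4 pool 2 it was −0.75. Each of these fits holds 1 ONX pool of day 4. The 9 belonged to 8 genes, several of which are also used outside muscle. The MEF2 transcription factor gene mef2ca differed by −1.301 ± 0.268 (limma, adjusted p = 0.0180), and mef2d by −0.81 ± 0.19 on 1 of its probe sets (0.0232). The enzymes pygmb, a glycogen phosphorylase, and gapdh, of glycolysis, differed by −1.28 and −1.24 (on 2 probe sets of pygmb) and by −1.22. Dystrophin (dmd), which links the cytoskeleton to the membrane of muscle fibres and has retinal forms in mammals, differed by −1.02 ± 0.20 (0.0176). The actin-binding genes nexn and xirp1 differed by −1.16 and −1.03, and mstnb, a myostatin, by −1.02. Without ONX day 4 pool 1 the differences of these 9 probe sets stayed below 0, between −1.68 for gapdh and −0.64 for nexn, with adjusted p-values between 0.0678 and 0.127.

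The muscle creatine kinases, which buffer ATP, had values like those of atp2a1 without passing. For ckma the SHAM pools of day 4 read 12.94 and 12.72 and the ONX pools 9.93 and 12.25, a difference of −1.74 ± 0.58 (limma, adjusted p = 0.0614). For ckmb they read 13.28 and 12.86 against 10.82 and 12.43, a difference of −1.45 ± 0.45 (0.0519). The parvalbumin gene pvalb2, a calcium buffer of fast fibres, read 7.72 and 7.25 against 10.30 and 10.99, a difference of 3.16 ± 1.25 (0.0996) that resembles that of acta1a in size and in spread. The actin gene actc1b, on 2 tested probe sets, differed by 0.07 and −0.19.

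At days 12 and 21, over the average, in the test between days and among SHAM eyes 0 of the 48 passed with limma, and the counts at an unadjusted p under 0.05 were 0, 0, 8, 9 and 1. The smallest p-values were those of trim63a, fbxo32 and capzb at day 12, flncb, xirp1 and pvalb2 at day 21, dmd, mef2ca and pygmb over the average, pygmb, mstnb and dmd in the test between days, and flncb, xirp1 and pvalb3 among SHAM eyes. The muscle ubiquitin ligase trim63a read 8.62 and 7.37 in SHAM and 9.37 and 8.74 in ONX eyes of day 12. Its difference of 1.06 ± 0.67 did not pass. In ONX eyes pool 2 was the higher in 44, 32 and 35 of the 48 at days 4, 12 and 21, and in SHAM eyes pool 1 was the higher in 31, 25 and 32. Among all 9301 tested probe sets the ONX counts were 6002, 4266 and 4440, and the SHAM counts 4551, 4663 and 4590.

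The remaining 18 of the 56 probe sets were too dim to be tested, and 12 of these did not reach the limit on any array: tnni2a.4 (2 probe sets), 2 of ttn.2, 1 of myl12.1, mybpc2b, tnnt2c, tnnc1a, myl7, myh9a and the shared probe sets of myh7 with myh7l and of tpmt.1 with tpmt.2. Of the others, the fast troponin T gene tnnt3a read 4.86 and 5.50 in SHAM and 8.64 and 9.19 in ONX eyes, while its second ONX pool of day 12 read 9.10 and the first 5.99. In a fit without the filter its difference was 3.74 ± 0.92 (limma, adjusted p = 0.0411). The fast myosin heavy chain myhz1.3 read 5.58 and 6.08 against 6.70 and 8.15. The other 4 are mybpc3 and tnnt2a, of cardiac muscle, the striated alpha-actinin actn2b, and tpm4b on 1 probe set, which read 8.73 in ONX day 4 pool 2 and at most 7.65 elsewhere, unlike the other probe set of that gene.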

How the data were processed

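RNA from 12 pools of eyes was hybridised to 1 Affymetrix array each. Each deposited value is the signal intensity of a probe set on an array, from MAS5 of a version not given in the sources used here, as named in the submitters' processing notes. They were not normalized again. Gene symbols came from the platform annotation, and all 52 probe sets with 1 symbol matched RefSeq genes of that symbol. The 115 control probe sets were set aside, and the upper 60% of the other 15502 by mean log2(signal + 16), 9301, were fitted with limma 3.58.1 in R 4.3.3: 1 mean per group, variances moderated along a trend (6 residual and 4.23 prior degrees of freedom), Benjamini-Hochberg adjustment over all tested probe sets, called at 0.05. P-values set the differences against the spread between pools, which is estimated over all groups together and moderated along the trend.

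The members, roles and gene lists were chosen with earlier results of these data known. Array values are given for called members, for atp2a1, myoz1b and mybphb, and for the 3 smallest p-values where none was called; other members whose values are given were chosen after these were seen. The fit was tested on simulated data. Pools were not paired in the main fit, since the labels do not state how the pools received their numbers. Deviations of same-numbered ONX and SHAM pools correlated at 0.12, −0.12 and −0.028 at days 4, 12 and 21 over all tested probe sets. Over the tested members the correlations were −0.37, −0.69 and −0.73. These values do not settle whether pools of the same number come from the same fish. Alternatives were other offsets, filters, scalings and moderation, array weights, a pool block, and arrays left out.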

Additional observations from a re-analysis of the deposited data

Results flagged for a closer look

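The non-muscle light chain gene myl12.1, on 1 of its tested probe sets, had both ONX pools above both SHAM pools at day 4, by 0.28, and both below at day 21, by −0.12. The F-test of a difference between days did not pass for it (limma, adjusted p = 0.732).

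Among the 18 probe sets too dim for the tests, 2 had both ONX pools of day 4 above all 6 SHAM pools of the 3 days. The lower of these ONX pools read 8.64 for tnnt3a and 6.70 for myhz1.3. How many dim probe sets of the whole array do so was not counted. Of all tested probe sets, 24.1% had both ONX pools of day 4 above the 2 SHAM pools of that day.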

How the results depend on the processing

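At day 4, 5 probe sets were called. The count was 3 of 56 with no filter, where 1218 probe sets of the whole array were called. The 3 were myoz1b and pgam2 again, and tnnt3a, which was not tested in the main fit. There mybphb, atp2a1 and myl6 did not pass (limma, adjusted p between 0.0618 and 0.0682). The count was 0 on signals scaled to the poly-A controls, with array weights and with only the arrays of day 4. It was also 0 on signals centred on the tested skeletal filament probe sets, an alternative chosen after seeing the data. With single pools left out it ranged from 0 to 8. With a replicate block (pools of one number and day) the count was 0, and the adjusted p-values of the 5 lay between 0.0545 and 0.0774 (limma). The labels do not say whether the pool numbers pair the samples. The block changed no other count. In the other 11 alternatives it stayed within 1.5 times. Over the average of the days and in the test between days 0 were called. That count changed where ONX day 4 pool 2 was left out, which leaves 1 ONX pool at day 4. At days 12 and 21 and among SHAM eyes 0 were called in every alternative. The differences of myoz1b, mybphb, atp2a1, pgam2 and myl6 kept their direction in all alternatives that tested them; with a stricter filter on dim probe sets myoz1b was not tested. The causes were not tested. With 2 pools a group, and 1 of them apart, small differences of these genes could not be resolved.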
